A study of Bos taurus with 16 samples.

Results

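The genes described here encode the axoneme, the microtubule core of a cilium, and the transport machinery that builds and serves cilia. Members were taken by symbol: dynein genes of the DNAH, DNAI, DNALI, DYNLRB and DYNLT families, tektins (TEKT), radial spoke genes (RSPH), cilia and flagella associated genes (CFAP), sperm-associated antigens (SPAG), intraflagellar transport genes (IFT), Bardet-Biedl syndrome genes (BBS), and ROPN1L, TPPP3 and CAPSL. They come to 64 probe sets for 45 genes, of 24128 probe sets and 9156 named genes on a bovine array. FOXJ1, PIFO and SPEF2 also belong to the rule and were not analysed here. Of the probe sets, 28 (21 genes) belong to the doublets, central pair and radial spokes, 10 (7 genes) to dynein, 19 (14 genes) to transport, and 7 to the 3 genes ROPN1L, TPPP3 and CAPSL. The SPAG symbols were placed with the first of these groups by name, although those other than SPAG6 do not share a place in the cilium. Where a gene has several probe sets they are numbered in the order of their identifiers.

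A motile cilium has an axoneme of doublet microtubules around a central pair. Axonemal dyneins slide the doublets, and radial spokes and the central pair coordinate the beat. Intraflagellar transport carries building material, outwards with the IFT-B complex and kinesin and back with the IFT-A complex and dynein-2, while the BBSome moves membrane proteins. Both also serve the primary cilium, a solitary immotile cilium that stromal and other cells carry. In the uterus, motile cilia sit on ciliated cells scattered through the luminal epithelium and the gland openings.

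RNA was measured on Affymetrix bovine arrays in 11 endometrium and 5 blastocyst samples. All cows had been superovulated, and endometrium was brushed off with a cytobrush from 49 cows, on day 7 just before embryos were flushed and on day 0, 2 h before insemination. Subclinical endometritis (SE) means that polymorphonuclear cells were found on the brush, and healthy endometrium (HE) that the number was 0. The groups were SE day 7 endometrium (3 arrays), HE day 7 endometrium (2 arrays), SE day 0 endometrium (3 arrays), HE day 0 endometrium (3 arrays), SE blastocysts (3 arrays) and HE blastocysts (2 arrays). Each array held a pool, with 10 embryos to a blastocyst pool. The sources used here do not give the number of cows in a pool of endometrium, so p-values measure the spread between pools. A cytobrush takes surface cells, and SE was itself defined by the immune cells on it.

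Values are log2 signals as deposited, in which a difference of 1 is a doubling. A probe set was tested in a tissue when its log2 signal was above 4 on at least 2 of that tissue's arrays, called the filter below. Differences were tested with limma, fitted on all probe sets past the filter (13421 in endometrium, 11014 in blastocysts), and a call means a Benjamini-Hochberg adjusted p under 0.05. Signals of different probe sets, and of endometrium and blastocysts, are not on a common scale and were not compared. Array medians ran from 4.18 to 4.30 in endometrium and from 3.08 to 3.12 in blastocysts, and 0 pairs of arrays were identical. SE day 0 replicate 2 stood apart from the other day 0 arrays. Averaged over the arrays of its day, it correlated at 0.985, where the remaining day 0 arrays gave 0.990 to 0.992. The GAPDH control at its 3′ end exceeded the one at the 5′ end by 0.578 on this array and by 0.026 to 0.141 on the remaining day 0 arrays. On the day 7 endometrium arrays the same excess was 0.215 to 0.574, the highest being SE day 7 replicate 1. The excess of the eIF4E control was higher in every SE endometrium array than in every HE endometrium array of its day. It was 3.88 to 4.27 in SE and 3.70 to 3.85 in HE on day 0. On day 7 it was 4.05 to 4.52 in SE and 3.67 to 3.91 in HE. The cyclophilin excess overlapped between SE and HE on both days. RNA was amplified in 2 rounds from 15 ng of total RNA. The part of RNA quality in the differences between SE and HE was not tested.

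In endometrium 46 member probe sets for 35 genes passed the filter, 37 of them on every array. In blastocysts 30 probe sets for 25 genes passed, 25 of them on every array. Both tissues had 28 member probe sets above the filter (43.8%, against 40.8% of all probe sets), and these were chiefly transport genes and light chains of cytoplasmic dynein. Endometrium alone had 18 (28.1%, against 15.1% of all probe sets). They represent 15 genes: CAPSL, CFAP100, CFAP119, CFAP126, CFAP141, CFAP206, CFAP36, CFAP410, DYNLRB2, ROPN1L, RSPH9, SPAG6, SPAG9, TEKT1 and TPPP3. Blastocysts alone had 2, for IFT57 and SPAG5. The cut of 4 was the same in both tissues although their signals are not on a common scale, so this split does not compare levels. The lowest signal of an array was 0.57 to 0.62 in endometrium and 2.20 in blastocysts. The remaining 16 (25% of the members, against 39.0% of all probe sets) passed in neither tissue, and they include the only probe sets of the axonemal dynein genes DNAH7 and DNAI7, of the tektin TEKT3, and of CFAP70, SPAG4, IFT80 and BBS9. No probe set of an axonemal dynein heavy or intermediate chain was therefore testable, and the label of the group rests on the doublet, spoke, central pair and ciliated-cell genes. The highest value among endometrium members outside the filter was 4.73, for CAPSL probe set 3 on SE day 0 replicate 2. The filter uses no group labels, and each member that passed it did so on arrays of more than 1 group. Those groups can be the SE and HE arrays of 1 day. CFAP126 probe set 1 was above the filter on day 0 arrays alone, and CFAP36 probe set 1 on day 7 arrays alone. Each thus passed only through the day on which it was high, and both are among the calls between days in SE.

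The first comparison set SE against HE endometrium on day 0. 0 of the 46 member probe sets were called in either direction by limma, with 0.0149% of all probe sets called higher and 0.00745% called lower. At an unadjusted p under 0.05, 10 members were higher and 1 lower in SE, against 2.5% higher and 5.1% lower of all probe sets. SE means were above HE means for 35 members and below for 11. The median difference of the members was 0.28, against -0.06 for all probe sets. All SE arrays lay above all HE arrays in 8 members, where 3.58% of all probe sets did so, and below them in 2 members, where 9.24% did so. By role, the median difference was 1.15 for the 5 probe sets of ROPN1L, TPPP3 and CAPSL, 0.33 for the 20 of the doublets, central pair and spokes, 0.17 for the 7 of dynein, and 0.14 for the 14 of transport. Leaving out SE day 0 replicate 2 gave medians of 0.74 for ROPN1L, TPPP3 and CAPSL, 0.16 for the doublets, central pair and spokes, 0.13 for dynein, 0.072 for transport and 0.18 for all members. Without HE day 0 replicate 1 the median was 0.17 for all members and 0.69 for ROPN1L, TPPP3 and CAPSL. In bulk RNA such as this, fewer cells of a type and less RNA per cell cannot be told apart.

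The day 0 differences lay mostly in the members that were above the filter in endometrium alone. For these 18 the median difference was 0.95, with 16 higher in SE, against -0.02 for all probe sets of that kind. For the 28 members above the filter in both tissues it was 0.12, with 19 higher, against -0.07. One pool carried much of this. SE day 0 replicate 2 was the highest of the 11 endometrium arrays in 15 of the 18 (83.3%) and in 22 of all 46 members (47.8%), where it was highest in 13.2% of all probe sets. HE day 0 replicate 1 was the lowest of the 6 day 0 arrays in 14 of the 18 (77.8%), where it was lowest in 12.3% of all probe sets. Without SE day 0 replicate 2 the median of the 18 was 0.49, with 17 higher; without HE day 0 replicate 1 it was 0.67, with 17 higher. SE day 0 replicate 2 is also the day 0 array with the widest gap between the ends of GAPDH, and the part of RNA quality in these differences was not tested.

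**Figure D1:**
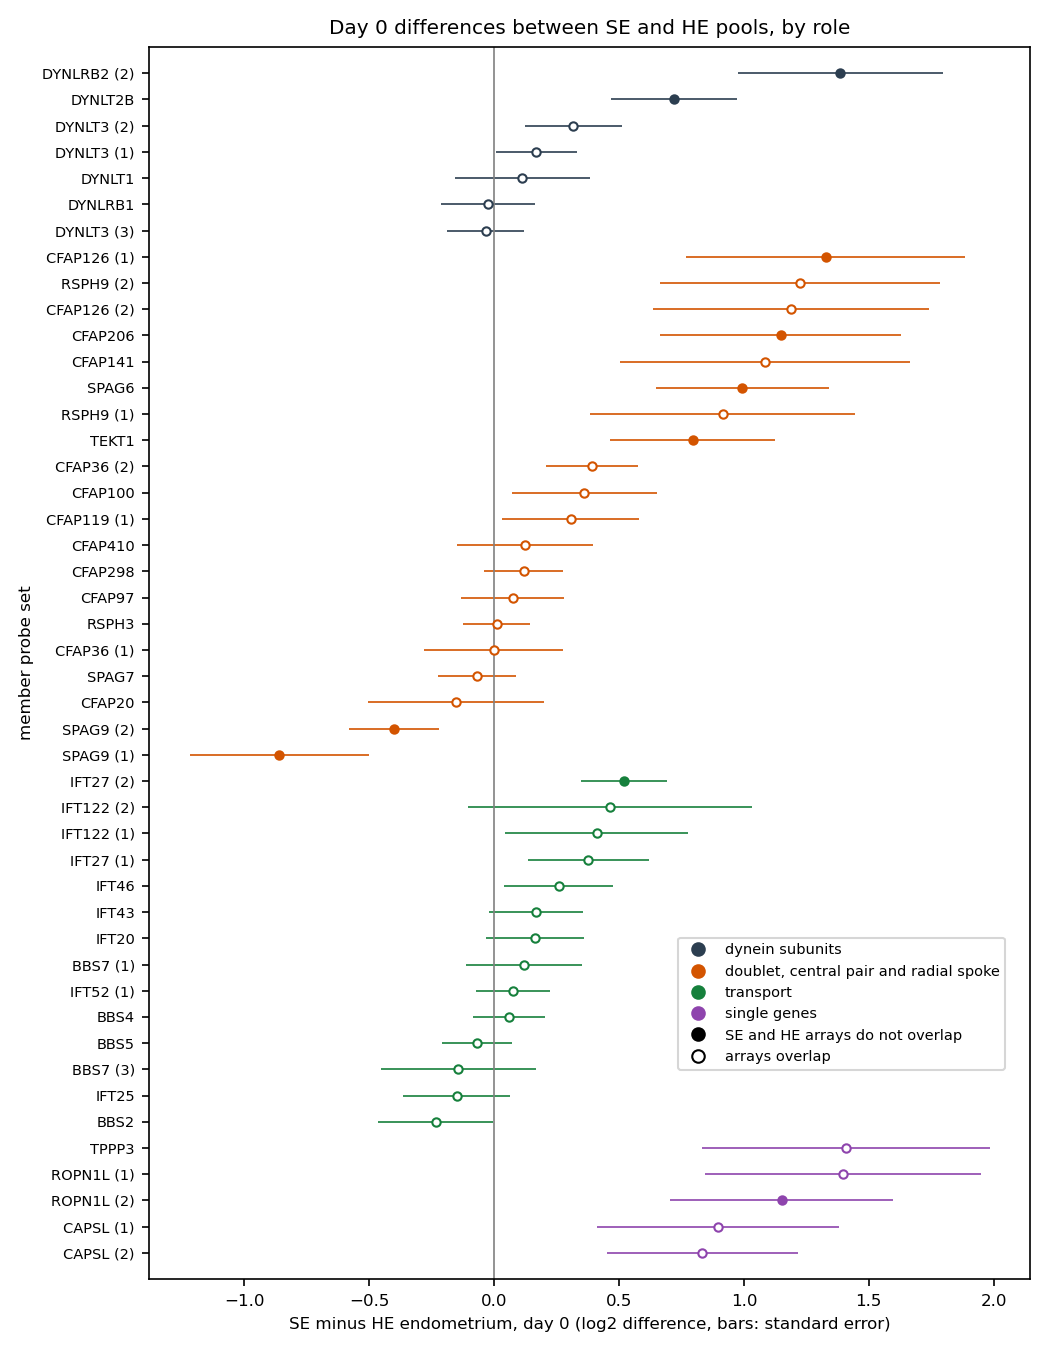
Difference of SE minus HE endometrium on day 0 (log2, horizontal axis) for each of the 46 member probe sets above the filter, with bars for limma's standard error and colours for the role. A number in brackets tells apart the probe sets of a gene, and filled points have every SE array on one side of every HE array. Differences run from 0.83 to 1.41 for ROPN1L, TPPP3 and CAPSL, and from -0.86 to 1.33 for the doublet, central pair and spoke group. They run from -0.03 to 1.39 for dynein and from -0.23 to 0.52 for transport.

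Among the dynein genes, DYNLRB2, a roadblock-type light chain found mainly in tissues with motile cilia, had the smallest day 0 p of any member. It read 8.9997, 10.26 and 8.80 in the SE pools, against 7.27, 8.36 and 8.28 in the HE pools. Every SE pool was above every HE pool, by a mean of 1.39 (standard error 0.41, 2.61-fold, limma adjusted p = 0.583), and by 0.93 without SE replicate 2. On day 7 DYNLRB2 read 8.28, 8.45 and 8.69 in SE, against 8.58 and 7.85 in HE, and the pools overlapped. Its relative DYNLRB1, a light chain of cytoplasmic dynein used in every cell, differed by -0.02 on day 0 (standard error 0.19).

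DYNLT2B, a light chain of the dynein-2 motor that returns intraflagellar transport trains to the cell body, was the dynein member that rose between days. In SE pools it read 8.50, 8.95 and 8.61 on day 7, against 7.59, 8.16 and 7.44 on day 0, and it rose by 0.96 (standard error 0.25, limma adjusted p = 0.00969). HE pools gave 8.92 and 8.25 on day 7, against 6.85, 6.86 and 7.33 on day 0, a rise of 1.57 (standard error 0.28, limma adjusted p = 0.0013). Day 7 lay above day 0 in every pool of either status. On day 0 itself, the SE pools of DYNLT2B all lay above the HE pools, by 0.72 (standard error 0.25, limma adjusted p = 0.608).

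DYNLT1, a Tctex-type light chain of cytoplasmic dynein and so not particular to cilia, moved the other way. It read 10.16, 10.46 and 10.38 in SE on day 7, against 11.27, 12.08 and 11.26 in SE on day 0, and fell by 1.21 (standard error 0.27, limma adjusted p = 0.00426). In HE it read 10.73 and 10.03 on day 7, against 11.10, 11.70 and 11.48 on day 0, and fell by 1.05 (limma adjusted p = 0.0177); that HE call was lost without HE day 0 replicate 2 (-0.91, adjusted p = 0.0576) or HE day 7 replicate 2 (-0.69, 0.168). The 3 probe sets of its relative DYNLT3 were called in no endometrium comparison, with day differences between -0.33 and 0.07.

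On day 0, 15 of the 20 probe sets grouped with the doublets, central pair and spokes had a higher mean in SE than in HE. The 5 with a lower mean were both of SPAG9, that of SPAG7, that of CFAP20 and CFAP36 probe set 1. Of these, SPAG7 and SPAG9 are in the group by name only. Called were 0 of the 20. TEKT1, a tektin that forms filaments along the doublet wall, read 6.27, 7.59 and 6.38 in SE, against 5.52, 6.25 and 6.08 in HE. The SE pools of TEKT1 all lay above the HE pools, the closest by a narrow margin (difference 0.79, standard error 0.33, limma adjusted p = 0.638). Without SE replicate 2 the difference of TEKT1 was 0.37. CFAP141, a protein of the doublet lumen, read 5.28, 7.18 and 5.71 in SE, against 4.15, 5.46 and 5.30 in HE, and the pools overlapped. The CFAP141 difference was 1.09, and 0.52 without SE replicate 2. CFAP20, a protein of the inner junction of the doublet, was among those with a lower mean in SE (difference -0.15).

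CFAP126, also called Flattop, which acts at the basal body in mouse ciliated cells, had 2 probe sets above the filter. Probe set 1 read 5.001, 6.44 and 4.96 in SE on day 0, against 2.77, 4.76 and 4.88 in HE on day 0. The SE pools were all higher, by 1.33 (standard error 0.56, limma adjusted p = 0.638), and the HE pool of 2.77 was below the filter. Without SE replicate 2 the difference was 0.84, and without HE replicate 1, the pool of 2.77, it was 0.64. By day 7 this probe set read 2.99, 3.66 and 3.56 in SE, against 3.80 and 3.75 in HE, all below the filter. The fall in SE between days was 2.06 on the log2 scale (standard error 0.56, limma adjusted p = 0.0116). Probe set 2 fell by 1.69 in SE (limma adjusted p = 0.0272), and in HE the day differences were -0.36 and -0.57, neither called. The SE call of probe set 2 was lost without SE day 0 replicate 2 (-1.10, limma adjusted p = 0.0825), without each SE day 7 pool in turn (adjusted p of 0.0548 to 0.0727), with array weights (0.0616) and with no filter (0.0801).

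The radial spoke genes RSPH9 and RSPH3 were above the filter, and RSPH10B was below it. RSPH9, a protein of the spoke head, read 7.62, 8.88 and 6.85 in SE on day 0 by probe set 2, against 5.79, 7.16 and 6.73 in HE on day 0, and the pools overlapped. That difference was 1.23, and 0.68 without SE replicate 2. On day 7 it read 5.72, 6.05 and 6.28 in SE, against 6.89 and 5.29 in HE. RSPH9 fell between days in SE by 1.77 with probe set 2 (standard error 0.56, limma adjusted p = 0.0239) and by 1.67 with probe set 1 (limma adjusted p = 0.0243), and in HE it was not called (-0.47 and -0.99). Without SE day 0 replicate 2 neither call held (-1.22 and -1.14, limma adjusted p = 0.0772 and 0.0776), nor with no filter (0.0725 and 0.0729). Probe set 2 was also lost without SE day 7 replicate 1 or 2, and probe set 1 without SE day 0 replicate 1 or SE day 7 replicate 1 or 3 (adjusted p of 0.0549 to 0.0756 in these).

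RSPH3, a protein of the spoke stalk, fell in both statuses. It read 5.04, 5.07 and 5.29 in SE on day 0, against 5.15, 5.01 and 5.20 in HE on day 0 (difference 0.01, standard error 0.13). On day 7 it read 4.13, 4.21 and 3.91 in SE, against 4.38 and 4.38 in HE. RSPH3 fell between days in SE by 1.05 (standard error 0.13, limma adjusted p = 0.000124) and in HE by 0.74 (standard error 0.15, limma adjusted p = 0.00271), with every day 7 pool below every day 0 pool.

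CFAP206, which sits at the base of radial spokes, was high in a single pool. It read 4.36, 6.73 and 4.72 in SE on day 0, against 4.06, 4.17 and 4.14 in HE on day 0, and lay between 3.99 and 4.27 in the day 7 pools. All SE pools of CFAP206 were above the HE pools on day 0 (difference 1.15, standard error 0.48, limma adjusted p = 0.638), by 0.42 without SE replicate 2. SPAG6, a protein of the central pair, read 5.62, 7.04 and 5.74 in SE on day 0, against 4.75, 5.29 and 5.38 in HE on day 0, with all SE pools higher (difference 0.99, standard error 0.35, limma adjusted p = 0.608). That difference was 0.54 without SE day 0 replicate 2. SPAG6 then read 5.05, 4.86 and 4.98 in SE on day 7, and it fell by 1.17 in SE (standard error 0.35, limma adjusted p = 0.0173). The day difference of SPAG6 in SE was -0.72 without SE day 0 replicate 2 (limma adjusted p = 0.0238), and the call was lost without SE day 7 replicate 2 (-1.12, limma adjusted p = 0.0512). In HE it differed by -0.61 between days (limma adjusted p = 0.226).

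CFAP100, which regulates the inner dynein arms, belongs to the members that fell in both statuses. It read 4.94, 4.58 and 4.39 in SE on day 7, against 5.96, 6.77 and 6.21 in SE on day 0, a fall of 1.68 (standard error 0.29, limma adjusted p = 0.000898). In HE it read 5.10 and 4.04 on day 7, against 5.83, 6.06 and 5.96 on day 0, a fall of 1.38 (standard error 0.32, limma adjusted p = 0.00631); this call was lost without HE day 7 replicate 2 (-0.85, adjusted p = 0.0717). CFAP410, needed for forming cilia, fell by 1.23 in SE and 1.19 in HE (limma adjusted p = 0.00408 and 0.00991). CFAP97 fell by 1.10 in SE and 0.82 in HE (limma adjusted p = 0.00137 and 0.0145). The HE calls of CFAP410 and CFAP97 were lost without HE day 7 replicate 1 (adjusted p = 0.05 and 0.0575), and that of CFAP97 also without HE day 7 replicate 2 (0.0724).

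CFAP36, which binds the small GTPase ARL3, a carrier of lipid-modified proteins to cilia, had the smallest p of any member in HE between days. Probe set 2 read 11.90, 11.67 and 11.60 in SE on day 7, against 9.70, 10.13 and 9.80 in SE on day 0. In HE it read 11.56 and 11.25 on day 7, against 9.19, 9.56 and 9.72 on day 0. The pools of the 2 days were far apart in either status: CFAP36 rose by 1.84 in SE (standard error 0.18, 3.59-fold, limma adjusted p = 2.42e-05) and by 1.92 in HE (standard error 0.21, 3.78-fold, limma adjusted p = 5.28e-05). Probe set 1 was below the filter in all day 0 pools (3.11 to 3.20), rose in SE (limma adjusted p = 0.00134) and was not called in HE (0.067).

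The SPAG genes other than SPAG6 share a name and not a place in the cilium, and they moved differently. SPAG9 is a scaffold for JNK signalling and an adaptor for microtubule motors. Its probe set 2 read 10.48, 9.87 and 10.51 in SE on day 7, against 8.24, 8.37 and 8.51 in SE on day 0, and 10.07 and 10.01 in HE on day 7, against 8.87, 8.68 and 8.77 in HE on day 0. By this probe set SPAG9 rose by 1.92 in SE (standard error 0.18, limma adjusted p = 1.62e-05) and by 1.27 in HE (standard error 0.20, limma adjusted p = 0.000647). SPAG9 probe set 1 rose by 2.61 in SE, the largest rise of any member there, and by 1.71 in HE, and was called in both. On day 0 both its probe sets were lower in every SE pool than in every HE pool, by -0.86 and -0.40 (limma adjusted p = 0.638 and 0.657), and these were the only 2 members with that pattern. Without SE day 0 replicate 2, which read 4.53 for probe set 1 against 5.98 and 5.70 in the other SE pools, the differences were -0.42 and -0.40. SPAG7 rose by 0.63 in either status (limma adjusted p = 0.00739 in SE and 0.0146 in HE); its HE call was lost without HE day 0 replicate 1 (0.51, adjusted p = 0.0519) or HE day 7 replicate 2 (0.56, 0.0916).

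ROPN1L, TPPP3 and CAPSL complete the axonemal and ciliated-cell members. TPPP3, a tubulin-binding protein abundant in ciliated epithelium, read 8.32, 10.67 and 9.05 in SE on day 0, against 7.00, 8.85 and 7.96 in HE on day 0. The pools of TPPP3 overlapped and the difference of 1.41 (standard error 0.58, 2.66-fold) was not called (limma adjusted p = 0.638). It was 0.75 without SE day 0 replicate 2. On day 7 it read 8.01, 8.29 and 7.90 in SE, against 8.37 and 8.01 in HE. Between days TPPP3 differed by -1.28 in SE (limma adjusted p = 0.0891) and by 0.25 in HE.

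ROPN1L, a member of the ropporin family of flagellar and ciliary anchoring proteins, read 7.18, 8.16 and 7.41 in SE on day 0 by probe set 2, against 5.52, 6.86 and 6.93 in HE on day 0. All SE pools of ROPN1L were higher, by 1.15 (standard error 0.45, limma adjusted p = 0.61). The difference was 0.86 without SE replicate 2 and 0.69 without HE replicate 1. On day 7 it read 6.05, 6.86 and 6.86 in SE, against 6.92 and 5.85 in HE, and the difference of 0.20 had a standard error of 0.50.

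CAPSL, a calcium-binding protein related to calcyphosine, was the one of the 3 called between days. Its probe set 1 read 6.25, 6.41 and 6.90 in SE on day 7, against 8.78, 9.79 and 8.42 in SE on day 0. CAPSL fell in SE by 2.47 (standard error 0.48, limma adjusted p = 0.00194), and by 2.04 with probe set 2 (standard error 0.38, limma adjusted p = 0.00147). In HE it read 7.58 and 5.71 on day 7, against 7.64, 8.43 and 8.22 on day 0, all day 7 pools lower (difference -1.45, standard error 0.54, limma adjusted p = 0.0514). Without HE day 7 replicate 1 the HE difference of probe set 1 was -2.39, and without HE day 7 replicate 2 it was -0.51.

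**Figure D2:**
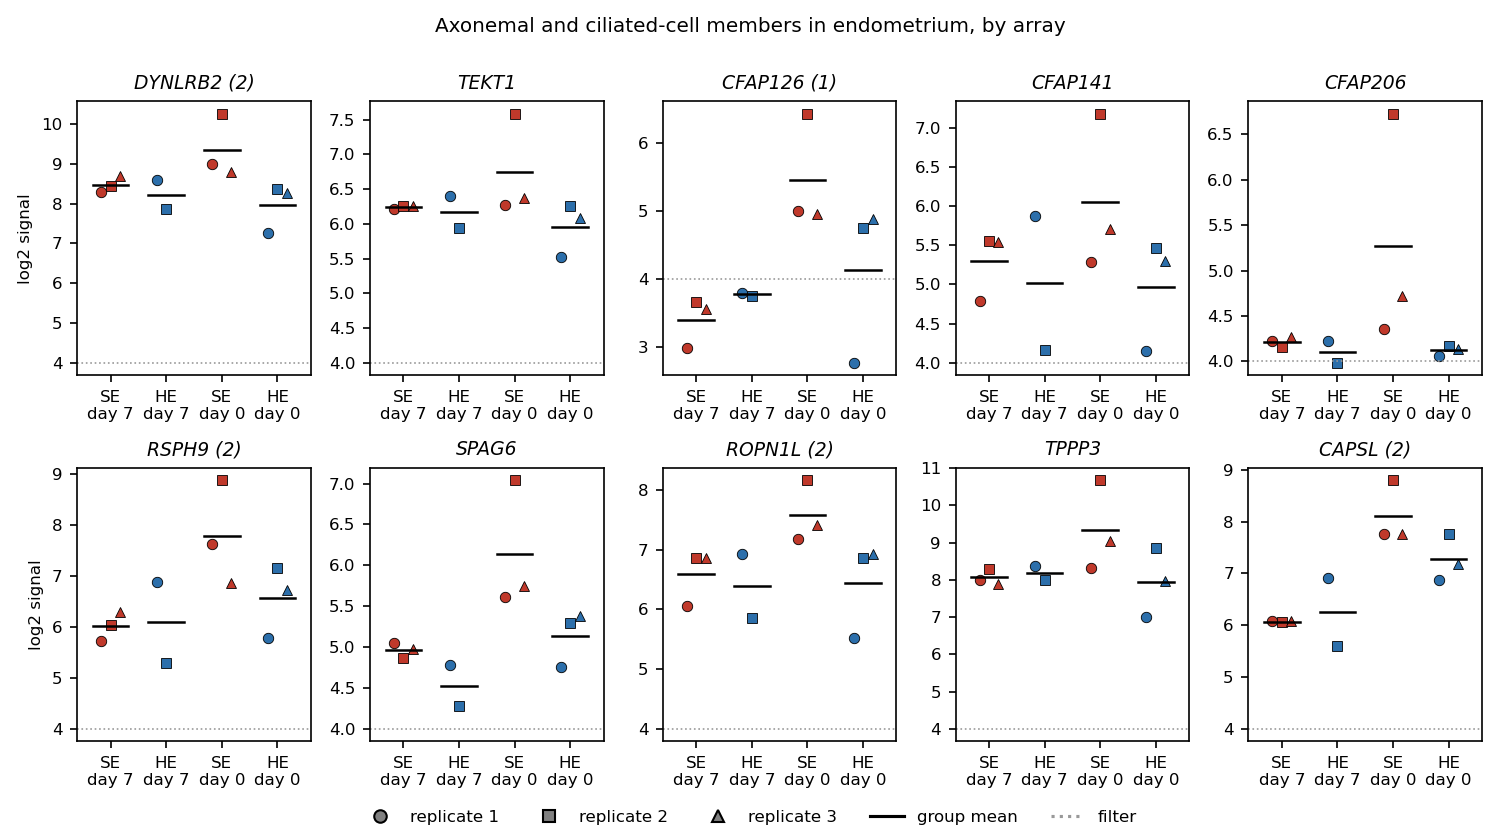
Log2 signal (vertical axis, a scale per gene) of 10 axonemal and ciliated-cell members on the 11 endometrium arrays, with red for SE, blue for HE, a marker for each replicate number, a line at each group mean and a dotted line at the filter of 4. SE day 0 replicate 2, the red square under SE day 0, is the highest point in each panel, for example 10.67 for TPPP3 and 6.73 for CFAP206. A replicate number was not taken to link samples across groups.

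The second comparison set day 7 against day 0 within each status. These contrasts share no array with each other. Both take the spread of a probe set from the same fit, so their calls are not independent. In SE, 9 member probe sets rose and 18 fell of 46, with 26% of all probe sets rising and 24.1% falling by limma at an adjusted p under 0.05. In HE, 8 rose and 9 fell, with 21.8% of all probe sets rising and 23.2% falling. The median member difference was -0.82 in SE, against 0.01 for all probe sets, and -0.06 in HE, against -0.03 for all. Without SE day 0 replicate 2 the SE median was -0.43 and 14 members fell. In HE the number that fell ranged from 5 without HE day 7 replicate 2 to 12 without SE day 0 replicate 2.

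Of the 9 probe sets that rose in SE, 8 rose in HE as well (88.9% of the SE list, 100% of the HE list), and these belong to CFAP36, DYNLT2B, IFT20, IFT25, IFT46, SPAG7 and SPAG9. Of the 18 that fell in SE, 9 fell in HE as well (50% of the SE list, 100% of the HE list), for BBS2, CFAP100, CFAP410, CFAP97, DYNLT1, IFT27, IFT43 and RSPH3. Over all probe sets the overlap was 75.4% of the SE list and 90.0% of the HE list for rises, and 78.8% of the SE list and 82.0% of the HE list for falls. The other 9 that fell in SE belong to CAPSL, CFAP126, IFT122, RSPH9 and SPAG6. That does not show that the day effect differed by status: the interaction of status and day, which tests the difference itself, called 0 of 46 members, as it called 0% of all probe sets. At an unadjusted p under 0.05 the interaction had 1 member higher and 1 lower, against 2.5% and 1.42% of all probe sets. Its median was -0.29 for the members and 0.06 for all probe sets, with 33 members below 0. A negative median was not particular to the members. It was -0.55 for markers of secretory and luminal epithelium (12 of 13 below 0) and -0.51 for stroma (12 of 15). For neutrophils it was -1.75 (7 of 8), for macrophages and dendritic cells -0.48 (9 of 11) and for lymphocytes -0.10 (7 of 11). Among the members above the filter in endometrium alone the interaction median was -0.88, with 16 of 18 below 0, against -0.0049 for all probe sets of that kind. That median was -0.30 without SE day 0 replicate 2, -0.34 without HE day 7 replicate 1, -0.50 without HE day 0 replicate 1 and -1.36 without HE day 7 replicate 2. The median of all members was -0.049 without HE day 7 replicate 1 and -0.44 without HE day 7 replicate 2. Among the 10 genes with several probe sets above the filter, the day difference had the same sign in all probe sets of a gene for 9 genes in SE, BBS7 being the exception, and for 9 in HE, DYNLT3 being the exception. Between SE and HE on day 0 the signs were the same for 7 of the 10, the exceptions being BBS7, CFAP36 and DYNLT3.

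**Figure D3:**
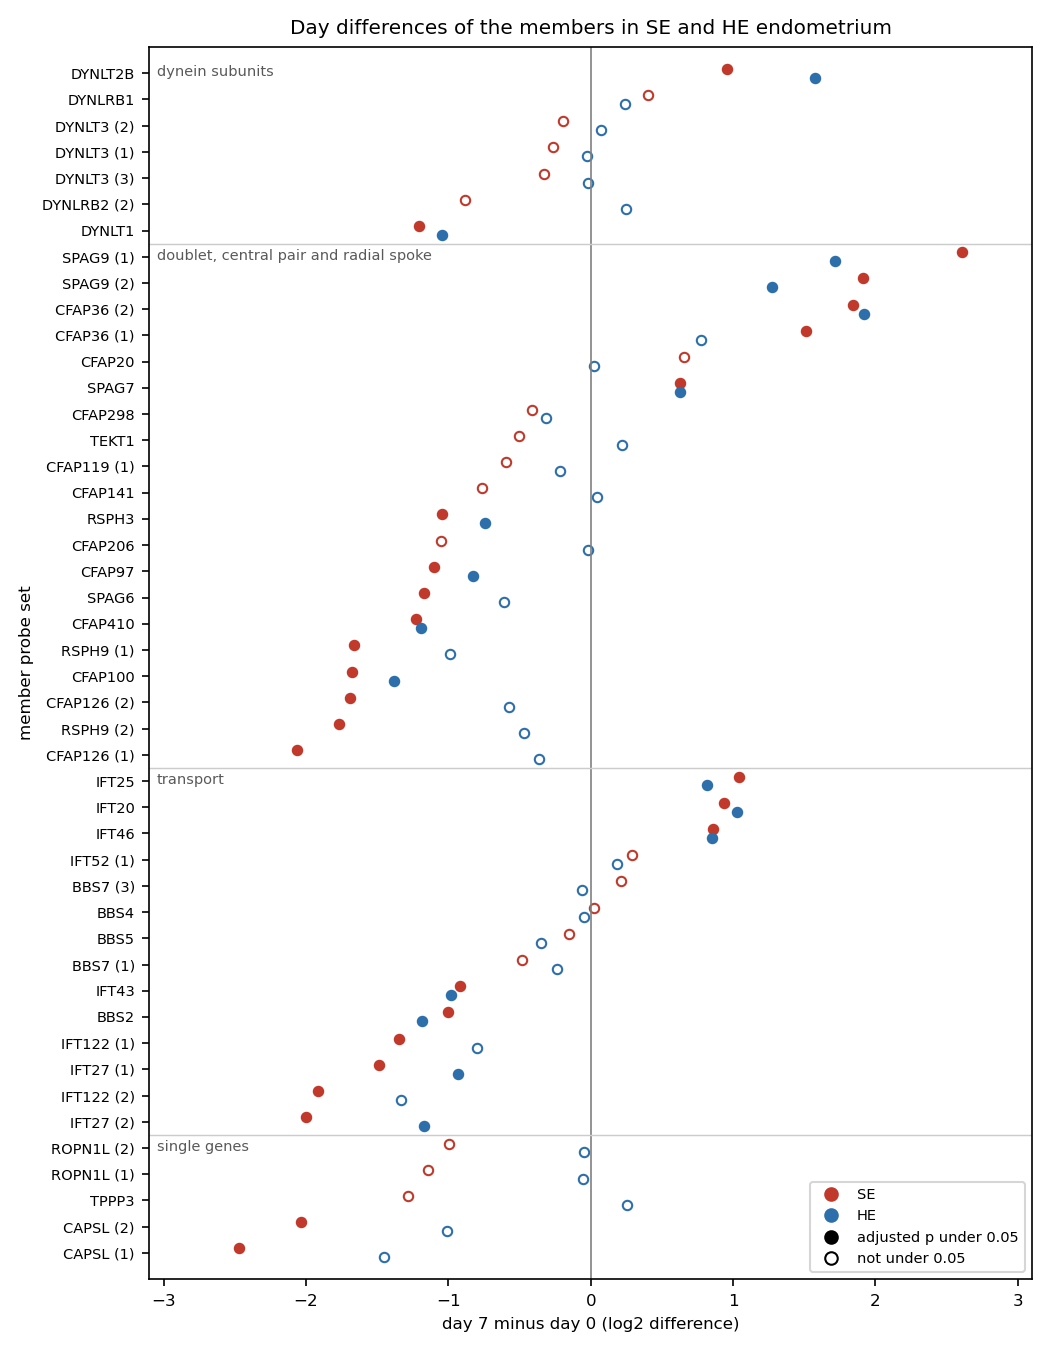
Difference of day 7 minus day 0 (log2, horizontal axis) of each of the 46 member probe sets above the filter, in SE (red) and HE (blue), grouped by role; filled points have an adjusted p under 0.05 and bracketed numbers tell apart the probe sets of a gene. Filled blue points are filled in red as well (17 probe sets), and CAPSL, CFAP126, RSPH9, IFT122, SPAG6 and CFAP36 probe set 1 are filled in red alone.

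Of the 14 transport probe sets above the filter, 3 rose and 6 fell between days in SE, 3 rose and 4 fell in HE, and 0 were called between SE and HE on either day. Those that rose are 21.4% of the 14 in either status, against 26% of all probe sets in SE and 21.8% in HE; those that fell are 42.9% in SE and 28.6% in HE, against 24.1% and 23.2%. IFT27, a small GTPase of IFT-B that also hands cargo to the BBSome, had the smallest p of any member in SE between days. By probe set 2 it read 5.44, 5.71 and 5.55 in SE on day 7, against 7.31, 7.85 and 7.53 in SE on day 0, and 6.02 and 5.72 in HE on day 7, against 7.02, 7.21 and 6.90 in HE on day 0. Each day 7 pool was below each day 0 pool, and SE was higher than HE in every pool on day 0 and lower in every pool on day 7. IFT27 fell by 2.00 in SE (standard error 0.17, 3.99-fold, limma adjusted p = 9.45e-06) and by 1.17 in HE (standard error 0.19, 2.26-fold, limma adjusted p = 0.000818). Its interaction was -0.82 (standard error 0.26), with an unadjusted p of 0.01 and a limma adjusted p of 1. Probe set 1 fell by 1.49 in SE and by 0.93 in HE (limma adjusted p = 0.00061 and 0.018), the HE call being lost without HE day 0 replicate 2 (-0.80, adjusted p = 0.059) or HE day 7 replicate 2 (-0.63, 0.168).

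Other IFT-B genes rose. IFT25, the partner with which IFT27 forms a dimer, read 10.55, 10.26 and 10.15 in SE on day 7, against 9.68, 8.84 and 9.31 in SE on day 0, and rose by 1.04 (standard error 0.21, limma adjusted p = 0.00253). In HE it read 10.44 and 10.04 on day 7, against 9.46, 9.40 and 9.41 on day 0, and rose by 0.82 (limma adjusted p = 0.019), a call lost without HE day 7 replicate 1 (0.62, adjusted p = 0.142). The dimer's 2 genes thus moved in opposite directions in these pools, in either status.

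IFT20, which also works at the Golgi in sorting proteins for the cilium, read 9.85, 10.26 and 10.26 in SE on day 7, against 9.05, 9.52 and 8.99 in SE on day 0. It rose by 0.94 in SE (limma adjusted p = 0.00288) and by 1.03 in HE (limma adjusted p = 0.00378), with all day 7 pools above all day 0 pools. IFT46, an IFT-B core protein, rose by 0.86 in SE (standard error 0.22, limma adjusted p = 0.00854) and by 0.85 in HE (standard error 0.25, limma adjusted p = 0.0174). The HE call of IFT46 was lost without HE day 7 replicate 1 (0.43, limma adjusted p = 0.183), without HE day 0 replicate 1 (0.70, 0.059), and when the HE pools were fitted alone (0.0584). IFT52, also of the IFT-B core, was not called, with differences of 0.29 in SE and 0.19 in HE.

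The IFT-A genes were lower on day 7. IFT43 read 7.74, 8.11 and 8.01 in SE on day 7, against 9.03, 8.59 and 8.997 in SE on day 0, and 7.999 and 7.45 in HE on day 7, against 8.69, 8.81 and 8.62 in HE on day 0. It fell by 0.92 in SE (standard error 0.19, limma adjusted p = 0.00251) and by 0.98 in HE (standard error 0.21, limma adjusted p = 0.00383). IFT122 fell in SE by 1.35 and 1.92 with its 2 probe sets (limma adjusted p = 0.0115 and 0.0176) and differed in HE by -0.80 and -1.33 (limma adjusted p = 0.139 and 0.116), where its day 7 pools spread widely, 6.93 and 8.21 by probe set 1. The SE call of probe set 2 was lost without SE day 0 replicate 1 or 2 or SE day 7 replicate 3 (limma adjusted p of 0.0525 to 0.0687) and with no filter (0.0568).

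Of the BBSome genes 1 was called. BBS2 read 8.46, 7.95 and 7.57 in SE on day 7, against 9.03, 8.88 and 9.08 in SE on day 0, and 8.21 and 7.88 in HE on day 7, against 9.39, 9.38 and 8.92 in HE on day 0. It fell by 1.00 in SE (standard error 0.23, limma adjusted p = 0.0049) and by 1.18 in HE (standard error 0.26, limma adjusted p = 0.00419). BBS4, BBS5 and BBS7 had day differences between -0.48 and 0.21 that were not called.

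**Figure D4:**
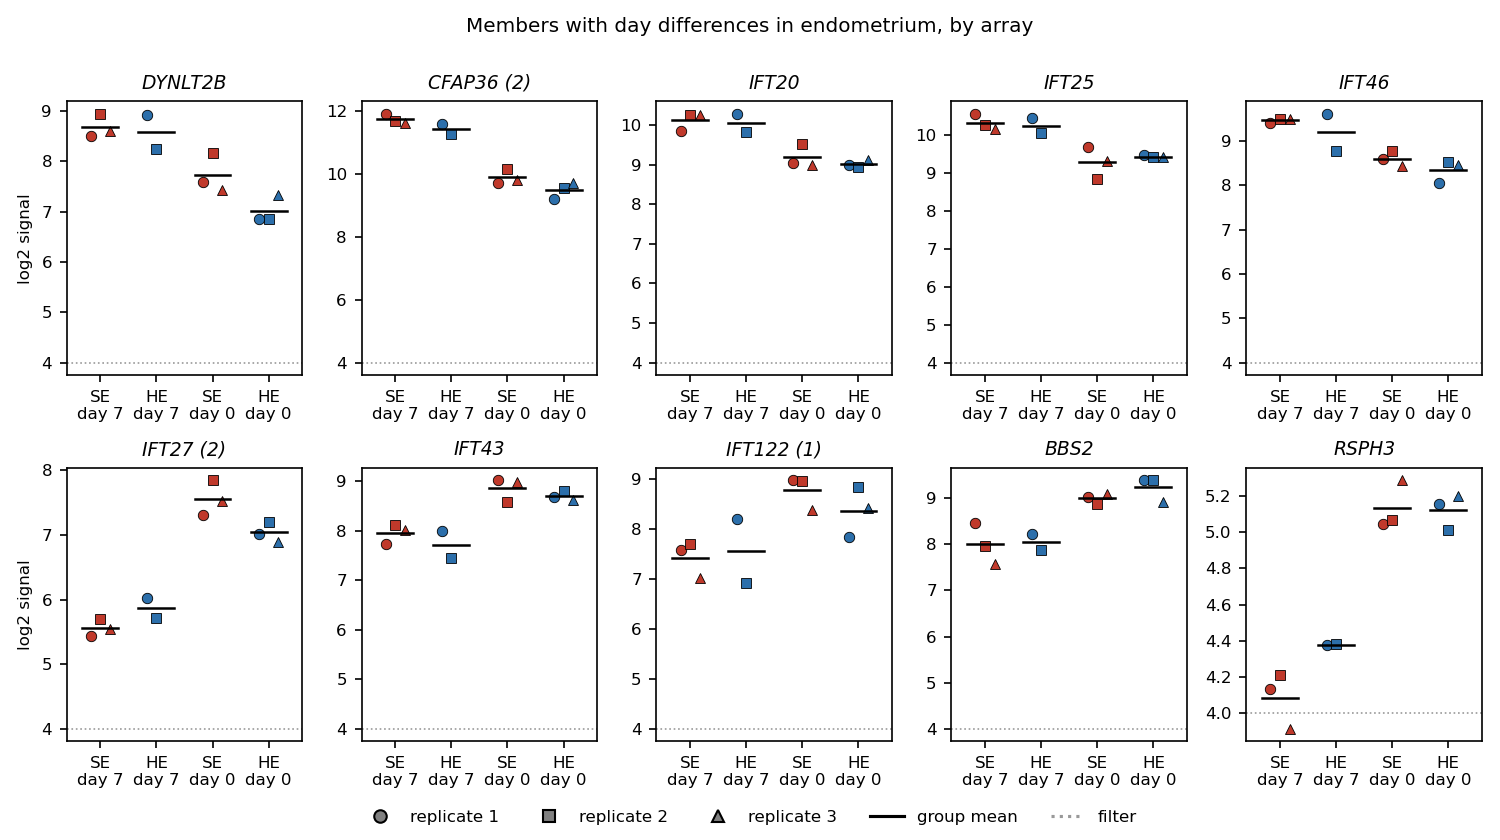
Log2 signal (vertical axis, a scale per gene) of 10 members with day differences on the 11 endometrium arrays, drawn like the plot of axonemal members. DYNLT2B, CFAP36, IFT20, IFT25 and IFT46 are higher on day 7 and IFT27, IFT43, IFT122, BBS2 and RSPH3 lower; for CFAP36 the 5 day 7 arrays lie between 11.25 and 11.90 and the 6 day 0 arrays between 9.19 and 10.13.

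The third comparison set SE against HE on day 7. 0 of 46 members were called, as were 0% of all probe sets, and 1 member was higher and 0 lower at an unadjusted p under 0.05, against 1.54% and 2.01% of all. SE means were higher for 28 members and lower for 18, with a median of 0.07, against 0.00 for all probe sets. All SE arrays were above the HE arrays in 3 members and below in 4, where 7.93% and 8.33% of all probe sets did so. The 2 HE pools differed from each other: of the 5 day 7 arrays, HE replicate 1 was the highest in 20 of 46 members (43.5%, against 19.0% of all probe sets) and HE replicate 2 the lowest in 30 (65.2%, against 23.1%). The member median was -0.17 without HE replicate 2 and 0.30 without HE replicate 1. The member with the smallest p was CFAP36 probe set 1, at 5.36, 4.02 and 4.59 in SE, against 3.73 and 4.11 in HE (difference 0.73, standard error 0.31, limma adjusted p = 1).

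Genes of motile cilia outside the member families were read the same way. Of 104 listed, 25 are named on the array and 19, with 22 probe sets, passed the endometrium filter. On day 0 they had a median SE minus HE difference of 0.54, with 17 of 22 higher and 0 called, and SE replicate 2 was the highest of the 11 arrays in 14 of them (63.6%). Without that array the median was 0.28, over the 19 probe sets then above the filter. With the HE arrays alone 18 of the 22 passed, so the others passed only with the help of SE arrays. With no filter the day 0 median was 0.52 over 31 probe sets, 26 of them higher in SE. Between days 3 rose in SE (DNAAF2, E2F5 and MYB, the last of these a regulator of early ciliated-cell differentiation) and 8 fell: CETN2, DAW1, DNAAF11, HOATZ, MDH1B, SPA17, STK33 and TUBA1A. In HE 0 rose and 4 fell. Over all probe sets 26% rose and 24.1% fell in SE, and 21.8% rose and 23.2% fell in HE. In these genes those that rose were 13.6% in SE and 0% in HE, and those that fell 36.4% in SE and 18.2% in HE. The number called in SE was 7 without SE day 7 replicate 2 and 6 without SE day 7 replicate 3. In HE it was 2 without HE day 0 replicate 2 or HE day 7 replicate 2, and 1 without HE day 0 replicate 3. TUBA1A, an alpha-tubulin also used outside cilia, fell by 2.93 in SE and by 2.73 in HE.

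Of 50 listed genes of transport and the transition zone, the gate at the ciliary base, 27 are on the array and 23, with 24 probe sets, passed. On day 0 their median difference between SE and HE was 0.095, with 0 called, and it was -0.037 without SE replicate 2 and -0.011 without SE replicate 1. Between days 1 of the 24 rose (4.17%) and 8 fell (33.3%) in either status, against the shares of all probe sets just given. Without HE day 7 replicate 2 the number called in HE was 5 in all. The one that rose was MKKS, a chaperonin-like protein for BBSome assembly. DYNC2I1, an intermediate chain of dynein-2, fell by 3.40 in SE and by 4.30 in HE, whereas the dynein-2 light chain DYNLT2B rose. KIFAP3, the adaptor subunit of the outward kinesin-2 motor, fell by 1.71 in SE and by 1.72 in HE.

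Markers of other cells on the brush also differed in their means between the groups, with 0 called between SE and HE on either day. On day 0 all 8 neutrophil probe sets were higher in SE (median 2.59, 0 called), with a mean log2 level per array of 6.33 to 10.33 in SE and 4.88 to 7.53 in HE. Those of macrophages and dendritic cells were higher in 10 of 11 (median 0.67; 5.52 to 5.74 in SE and 4.94 to 5.26 in HE), stromal ones in 12 of 15 (median 0.68; 8.86 to 9.70 in SE and 8.02 to 9.25 in HE), and secretory and luminal epithelial ones in 9 of 13 (median 0.21; 10.22 to 10.35 in SE and 10.06 to 10.22 in HE). Lymphocyte probe sets were higher in 8 of 11 (median 0.15; 5.81 to 6.41 in SE and 5.49 to 5.90 in HE). The mean level of the 18 members above the filter in endometrium alone ran from 6.24 to 7.33 in SE and from 5.32 to 6.14 in HE. Neutrophil markers were highest, of the 11 arrays, in SE day 0 replicate 3 for 7 of 8 probe sets, not in the replicate 2 that was highest for the cilia genes. By mean level, SE day 0 replicate 2 was also the highest day 0 array for epithelial (10.35), macrophage (5.74) and lymphocyte (6.41) markers. Stromal markers were highest in SE day 0 replicate 1 (9.70). HE day 0 replicate 1 was the lowest day 0 array for macrophage (4.94) and lymphocyte (5.49) markers. It was not the lowest for the epithelial, stromal or neutrophil ones. On day 7 all 13 epithelial probe sets were lower in SE (median -0.30), 5 of them without overlap, against 8.33% of all probe sets. All 8 neutrophil ones were higher in SE (median 0.66). Higher as well were 10 of 15 stromal (median 0.13), 7 of 11 macrophage (median 0.08) and 6 of 11 lymphocyte probe sets (median 0.03).

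Between days 10 of the 13 secretory and luminal epithelial probe sets were called lower and 2 higher in SE, against 24.1% and 26% of all probe sets. In HE 7 were called lower and 3 higher, against 23.2% and 21.8% of all probe sets. The mean level of these markers was 8.89 to 8.95 on day 7 and 10.22 to 10.35 on day 0 in SE. In HE it was 9.25 to 9.34 on day 7 and 10.06 to 10.22 on day 0. Against the same shares, 5 of 11 lymphocyte probe sets were called higher and 0 lower in SE, and 4 and 0 in HE. Of 15 stromal ones, 0 were higher and 4 lower in SE, and 0 and 3 in HE. Of 11 macrophage ones, 2 were higher and 2 lower in SE, and 4 and 1 in HE. Of 8 neutrophil ones, 0 were higher and 1 lower in either status. The part of the cell mixture in the differences of the members was not tested. Of the listed markers on the array, FCGR3A and MMP9 (neutrophils), ITGAM (macrophages), CD79A, MS4A1, GZMB and NKG7 (lymphocytes), KRT8 (epithelium) and PDGFRB (stroma) were below the filter in endometrium.

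The last comparison set SE against HE blastocysts. 0 of 30 members were called, as were 0% of all probe sets, and at an unadjusted p under 0.05 there were 0 higher and 1 lower, against 4.54% and 4.8% of all. SE means were higher for 14 members and lower for 16, with a median of -0.04, against 0.01 for all probe sets. All SE pools were above the HE pools in 2 members and below in 4, where 12.4% and 12.6% of all probe sets did so. The 3′ excess of the GAPDH control also separated the blastocyst groups, at 5.47 to 5.85 in SE and 4.97 to 5.11 in HE. For the eIF4E control it overlapped, at 10.70 to 11.16 in SE and 10.69 to 10.94 in HE, and the cyclophilin excess overlapped as well. The part of RNA quality in the blastocyst differences was not tested.

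Blastocyst members were mainly transport genes, with 15 probe sets for 12 genes. IFT46 read 6.73, 7.81 and 6.94 in SE blastocysts, against 6.37 and 6.01 in HE blastocysts, all SE pools higher (difference 0.97, standard error 0.38, limma adjusted p = 0.545). IFT122 by probe set 1 read 8.01, 8.78 and 7.98 in SE, against 9.37 and 8.85 in HE, all SE pools lower (difference -0.85, standard error 0.34, limma adjusted p = 0.548). IFT57, which joins IFT-B to kinesin-2 and was above the filter in blastocysts alone, read 4.45, 3.67 and 4.66 in SE, against 5.25 and 4.89 in HE (difference -0.81, limma adjusted p = 0.584).

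DYNLRB1 had the smallest p, at 8.94, 8.79 and 9.16 in SE blastocysts, against 9.51 and 9.38 in HE blastocysts; all SE pools were lower, by -0.48 (standard error 0.16, limma adjusted p = 0.508). SPAG5, known as astrin and part of the mitotic spindle and not of the axoneme, read 8.51, 8.33 and 8.33 in SE, against 8.13 and 8.41 in HE. TPPP3, CAPSL and ROPN1L had 0 probe sets above the filter in blastocysts, with values of 2.20 to 2.43, and DYNLRB2, TEKT1, RSPH9 and SPAG6 were below the filter there as well. CFAP126, by probe set 2, was above the filter in blastocysts on 4 of 5 arrays, at 4.41, 4.39 and 4.80 in SE, against 3.47 and 5.69 in HE.

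**Figure D5:**
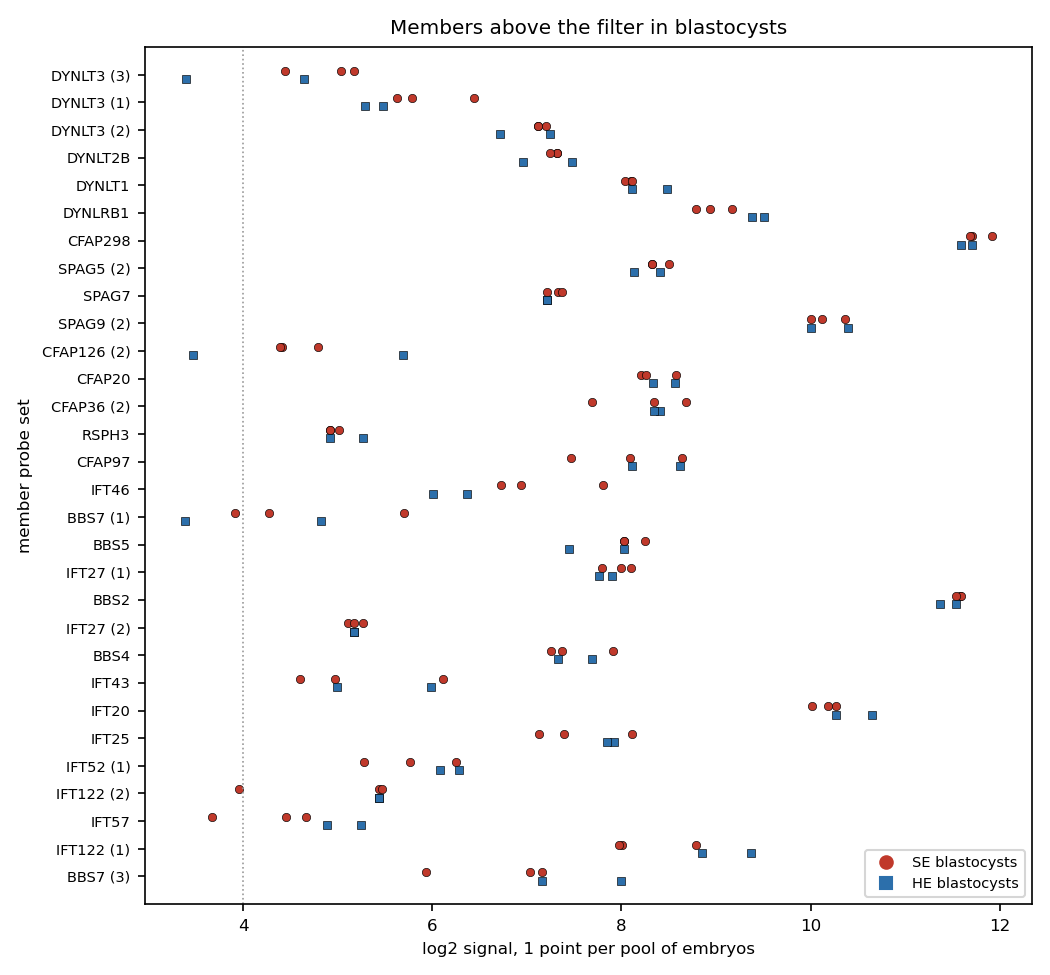
Log2 signal (horizontal axis) of the 30 member probe sets above the filter in blastocysts, with a point for each pool of embryos, red circles for SE and blue squares for HE, ordered by role and by difference; the dotted line is the filter of 4. SE and HE pools overlap in 24 of the 30, and the largest difference in favour of SE is that of IFT46 (0.97).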

How the data were processed

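The deposited values are log2 signals per probe set; the submitters' processing notes name GCRMA and limma, without versions or roles, and the sources used here do not say whether the tissues were normalized together. Symbols came from the annotation supplied for the array: 13318 probe sets had 1 symbol, 86 had several and 10724 had none here. Tests left out the 112 control probe sets.

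R 4.3.3 and limma 3.58.1 were used for 1 fit on the 11 endometrium arrays and another on the 5 blastocyst arrays, with group means, empirical Bayes and two-sided moderated tests, adjusted over all probe sets past the filter (log2 above 4 on at least 2 arrays). The script was tested on simulated data. Plots used Python 3.11.15, pandas 2.3.3 and matplotlib 3.10.9. Members, roles and gene lists were chosen with earlier results of these data known. Members named are those called, at most 10 per direction by p, filled up to 5 with the smallest p, plus ROPN1L, TPPP3 and CAPSL; others were named after their values were seen. The alternatives were no filter, a filter at 5, quantile normalization again, array weights, a replicate block, fits on the compared groups, 1 value per gene and leaving out each array. The number of arrays limits precision. No sequence is shown, since none was read.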

Additional observations from a re-analysis of the deposited data

How the results depend on the processing

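The values set against alternatives that kept every array cover counts, medians and the members chosen by the naming rule. Of these, 841 stayed the same, 12 moved, 4 gained a call, 1 lost one and 5 changed sign. A member stayed the same on its side of the threshold, a median within the spread between replicates, and a count within a fixed factor of the main count. A change of filter or a fit on the compared groups cannot change a probe set's difference of group means, so its sign was fixed there. Nor can a replicate block change it on day 0 or between days in SE, where each group holds each replicate number once. Over all member probe sets called between days, 6 calls were lost in such alternatives, for 5 probe sets of CFAP126, IFT122, IFT46 and RSPH9. No member was called between SE and HE, in the interaction or in blastocysts under any alternative run. With no filter, the day 0 median was 0.10 for the doublet, central pair and spoke group and 0.89 for ROPN1L, TPPP3 and CAPSL, the SE day median was -0.23 and the interaction median -0.094; more probe sets near background enter there by construction. With array weights the SE day median was -0.56 and the day 0 median of the members above the filter in endometrium alone 0.76. This last alternative, like leaving out pools for that median, for the interaction median of these members and for the day 0 medians of the other ciliary genes, was chosen after seeing the data. So was reading the day 0 median of the other motile cilium genes with no filter. With 1 value per gene, the blastocyst median was -0.11 and 1 of the genes ROPN1L, TPPP3 and CAPSL was called in SE between days; with a filter at 5, quantile normalization again or array weights, 1 of their probe sets was called in HE. For the alternatives without a stated construction the cause was not tested. Values near 0 changed sign for IFT25 on day 0 with array weights (0.00805) and for ROPN1L in HE between days with array weights (0.10 and 0.092).

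The samples were not treated as paired by replicate number. Of 15 pairs of endometrium arrays with the same number, 2 had deviations correlated above 0.1 (range -0.27 to 0.24), as had 12 of 30 pairs with different numbers. The 2 blastocyst pairs with the same number gave 0.090 and 0.11, and the 4 with different numbers -0.11 to 0.034. In a group of 2 arrays the deviations mirror each other, so these correlations are tied and cannot decide on pairing. A replicate block left all 27 SE and 17 HE day calls in place, though the SE differences could not change with it. It gave a blastocyst median of 0.018, and gave ROPN1L 0.051 and 0.016 in HE between days.

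Leaving out each array in turn gave these ranges. On day 0 the member median ran from 0.17 to 0.38, that of the doublet, central pair and spoke group from 0.16 to 0.50, of dynein from 0.13 to 0.29 and of transport from 0.072 to 0.16. The median of ROPN1L, TPPP3 and CAPSL ran from 0.69 to 1.40, that of the members above the filter in endometrium alone from 0.49 to 1.21, and IFT25 from -0.35 to 0.069. SE over HE on day 7 had a member median of -0.17 to 0.30; single members changed sign there, with ranges of -0.0047 to 0.96 for CFAP20, -0.49 to 0.13 for IFT27 probe set 1, -0.15 to 0.76 and -0.33 to 0.74 for ROPN1L, -1.06 to 0.81 and -0.85 to 0.47 for CAPSL, and -0.31 to 0.057 for TPPP3. In HE between days the members that fell numbered 5 to 12 and the median ran from -0.46 to 0.035. The called probe sets numbered 1 to 2 for dynein, 5 to 9 for the doublets, central pair and spokes, 0 to 2 for ROPN1L, TPPP3 and CAPSL, 1 to 5 for other motile cilium genes and 5 to 12 for other transport genes. TPPP3 ran there from -0.21 to 0.71 and ROPN1L from -0.58 to 0.49 and from -0.51 to 0.40. In SE between days the median ran from -0.91 to -0.43 and the other motile cilium calls from 6 to 11. The interaction median ran from -0.44 to -0.049 and the blastocyst median from -0.105 to 0.018. Groups of 2 or 3 arrays limit all of these.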
